A study of Homo sapiens with 6 samples.

Results

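An alternative 3′ splice site (A3SS) event joins 1 upstream exon to the same downstream exon at either of 2 acceptor sites, so that the mRNA keeps or loses the stretch between them. The events described here are those of the deposited A3SS table whose 2 sites lie more than 50 nt apart, whose junction counts give back the inclusion levels printed on the same line, and which have a mean of at least 10 junction reads over the 6 libraries. The table lists 5692 A3SS events, of which 2507 are over 50 nt apart. Of these, 150 have count lists that no longer divide into 3 numbers and 422 lie under the minimum of reads, which leaves 1935 events in 1407 genes. The rule used the distance, the legibility of the lists and the depth, and no difference between the groups.

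RNA was taken from NCI-H1975 cells (spelled NCl-H1975 in the labels), an established human lung adenocarcinoma line. The cells were transfected by lipofection in 6-well plates for 48 h, with 2 µg per well of PCDNA3.1-SAM68 (SAM68 group, 3 libraries) or of PCDNA3.1 without an insert (control group, 3 libraries). SAM68, encoded by KHDRBS1, is an RNA-binding protein that takes part in the choice of splice sites. The comparison asks which acceptor sites were used differently after 48 h of SAM68 expression from the plasmid in 1 cell line.

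An acceptor site consists of a branch point, a run of pyrimidines and an AG dinucleotide, which are read by SF1, by the large subunit of U2AF and by the small subunit of U2AF in turn. Spliceosomes scan downstream from the branch point for an AG, so acceptor sites a few bases apart can share 1 branch point and pyrimidine run, whereas sites far apart each need their own. Use of the upstream site lengthens the exon. When the added stretch is a multiple of 3 and holds no stop codon, the protein gains amino acids, and when it shifts the frame or brings a stop codon the mRNA can be degraded by nonsense-mediated decay (NMD).

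The following lines show both acceptor sites of 8 events that the comparison below turns on, as 20 intronic and 3 exonic bases, 5′ to 3′ on the strand of the gene, from hg38. Capitals mark the AG before the splice junction. The upstream site makes the longer exon.
RTBDN upstream, chr19:12829026-12829048, minus strand: ttgttgtctcccctgtccAGggg
RTBDN downstream, chr19:12828951-12828973, minus strand: acagggttcccctttgccAGgac
MECOM upstream, chr3:169116737-169116759, minus strand: tttttgttgtttgcacacAGgtg
MECOM downstream, chr3:169115765-169115787, minus strand: tcccctcccattttttccAGcat
CDK13 upstream, chr7:40092765-40092787, plus strand: taatataattttgtctttAGtaa
CDK13 downstream, chr7:40092945-40092967, plus strand: tgctggaattttggcaacAGgtg
RPL22L1 upstream, chr3:170868199-170868221, minus strand: aacctaagctctattcctAGggt
RPL22L1 downstream, chr3:170868132-170868154, minus strand: ttttttctgttttaaaatAGgag
BRD1 upstream, chr22:49787885-49787907, minus strand: tttatttataattttttcAGgag
BRD1 downstream, chr22:49787492-49787514, minus strand: caaaacctttttgtctgtAGtcc
ZMIZ2 upstream, chr7:44756955-44756977, plus strand: gaaccccatgggccctgcAGgga
ZMIZ2 downstream, chr7:44757023-44757045, plus strand: ccgccttgacctccccacAGtgc
FN1 upstream, chr2:215372373-215372395, minus strand: ctctaacctctctcggctAGacg
FN1 downstream, chr2:215372298-215372320, minus strand: cttggatgttccttccacAGttc
ACADVL upstream, chr17:7220444-7220466, plus strand: ctaaccgtctcttttcccAGctg
ACADVL downstream, chr17:7220584-7220606, plus strand: atttgcctctctctgcccAGgaa

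The 2 sites of an event were alike in some genes and unlike in others. In RTBDN, a gene for a riboflavin-binding protein of the retina, pyrimidines make up 75% of the 20 bases before the upstream AG and 70% before the downstream AG. In ZMIZ2, a PIAS-like transcriptional coregulator, the shares are 50% and 80%. The MECOM sites, 972 nt apart, have 75% and 95%. Both FN1 sites have 70%.

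The inclusion level (PSI) is given here as a percent and is read as the use of the upstream site in the RNA present. In each library, the reads of both forms were divided by the effective length of the form, and PSI is the share of the longer form in their sum. In the A3SS table the reads of the longer form hold both the junction to the upstream site and the reads across the downstream site without a gap. The 2 kinds are not separated in the file, so an RNA that keeps the intron before the upstream site adds to the longer form too. Differences are SAM68 minus control, in percentage points ± SE. Where 2 sets of 3 values are given, the first holds the control and the second the SAM68 libraries.

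The 1935 events held 262192 to 306874 junction reads per library. The separate exon skipping table of the same libraries held 16951876 to 19737729. Reads without molecular identifiers are not independent molecules, and the spreads given here are those between libraries. The targeted gene was checked first: reads of the KHDRBS1 exon skipping event with the most reads were 326 ± 9.02 in the controls and 1285 ± 23.7 with SAM68 (SD, n = 3 each), a ratio of 3.95 (two-sided exact permutation test, p = 0.1, the smallest that 3 against 3 libraries allow). These levels are per 1000000 reads of a total that takes only the deepest exon skipping event of each gene. Per 1000000 reads of the whole exon skipping table they were 102 and 403, the same ratio of 3.95. The event does not tell plasmid transcripts from those of the genome, and in RNA of whole cultures more expressing cells and more RNA per cell cannot be told apart. Of 8 epithelial markers, 2 had an event, KRT8 and MET. On the first of these scales KRT8 stood at 242, 259 and 532 in the control and at 235, 240 and 254 in the SAM68 libraries, so that 1 control library lay apart in this gene. MET stood at 37.1 to 39.7 in the control and 32.9 to 34.4 in the SAM68 libraries, whereas the alveolar marker NAPSA reached at most 0.939. CD68, the 1 macrophage and lysosome gene with an event, stood at 94.0 to 106. Over the reads of the 1935 events, the chi-square per degree of freedom was 2.50 to 2.90 between libraries of a group and 2.71 to 3.27 between groups.

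Distances ran from 51 to 6147 nt with a median of 123 and quartiles of 75 and 265. The largest class, 788 of the 1935 (40.7%), lay 51 to 100 nt apart. In 506 events (26.1%) GENCODE 44 annotates an intron inside the added stretch that ends at the downstream site. Such introns were in 0.254% of the events of 51 to 100 nt, 17.2% of those above 100 and up to 200 nt, 59.9% of those above 200 and up to 500 nt and 77.9% of those over 1000 nt. In 448 of the 506, the exon skipping table lists an exon that starts at the same upstream site and is skipped by the same junction, and in 382 the inner intron is also listed in the retained intron table. In those 448 events the junction of the shorter form is also the one counted for the skipping of that exon. The other 1429 events have no annotated intron inside the stretch, though 5 of them also share their junction with an exon skipping event.

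The 1935 events shared parts with each other. They held 1856 different pairs of sites, 1769 upstream sites and 1761 downstream sites, and 891 of the events came from 363 genes with several. The upstream junction was annotated in 1826 events and the downstream junction in 1512. An AG stood before 1930 upstream and 1932 downstream sites. The donor of the upstream exon was GT in 1918 events, GC in 15 and AT in 2.

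**Figure D1:**
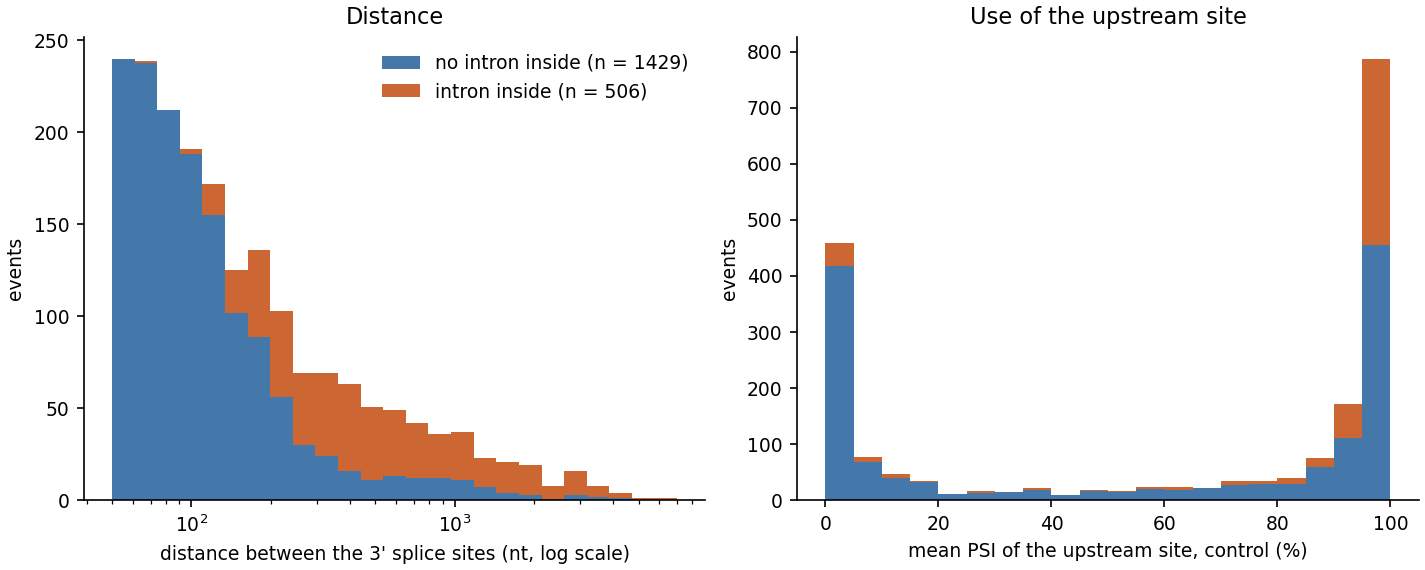
Left, events by distance between the 3′ splice sites in nt on a log axis, for events without (blue) and with (orange) an annotated intron inside the added stretch. Right, the same events by mean PSI of the 3 control libraries in percent. Events with an intron inside lie at long distances and mostly above 95%, and both sets are sparse between 20 and 80%.

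Most events had 1 dominant site. In the control libraries the median PSI was 89.5%, and 785 events (40.6%) were above 95% and 458 (23.7%) under 5%. Only 247 (12.8%) lay between 20 and 80%. In the SAM68 libraries the counts were 791, 454 and 237. The 1429 events without an inner intron had a median of 69.9%, and the 506 with one had a median of 98.1%, with 65.2% of them above 95%. Of the 1792 tested A3SS events 4 to 50 nt apart, 13.3% lay between 20 and 80% in the control libraries, and of the 640 events exactly 3 nt apart, the tandem acceptors, 48.0% did. The pattern of 1 dominant site was thus shared with the 4 to 50 nt class, and these differences between classes were not tested.

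The libraries were alike in this. Over the 1926 events with reads in all 6, the median PSI was 89, 88.8 and 89% in the controls and 89.4, 89.1 and 88.6% with SAM68. The share of events above 50% ran from 62.4 to 63.0%. The SAM68 and control values overlap in both measures.

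RNA joined at the upstream site was rare where the added stretch holds a stop codon and no annotated intron. PSI is a share of the RNA present, and whether such RNA was seldom made or was degraded after splicing was not tested. The reading frame into the added stretch could be read for 974 events in which a coding GENCODE transcript joins the upstream exon to the shorter exon, with 1 frame. The frame was thus known only where the shorter form is annotated as coding, and the 941 events without a frame had a median control PSI of 97.5%. An in-frame stop codon lay in the stretch in 460 events and none in 514. With a stop codon the median control PSI was 2.69%, and 79.3% of the events were under 50%. Without one the median was 72.8% and 43.2% were under 50%. The frame was read through the whole stretch, inner introns included, so where an inner intron is spliced out the stop codon need not be in the mRNA. In the 359 events with a stop codon and no inner intron the median was 1.69% and 88.6% were under 50%. In the 101 with a stop codon and an inner intron the median was 71.3% and 46.5% were under 50%.

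The stretches with a stop codon were longer (median 155 nt, against 84.5 nt), so the classes were also set side by side at like distances, over events without an inner intron. At 51 to 100 nt the median control PSI was 2.02% for 145 events with a stop codon and 69% for 312 without. Above 100 and up to 200 nt it was 1.55% for 120 events and 70.5% for 135. Above 200 nt it was 1.57% for 94 events and 74.6% for 37. The SAM68 libraries gave 2.22, 1.55 and 2.21% with a stop codon and 66.6, 77.0 and 80.1% without. The events of a class share their libraries and are no replicates, so the medians are given with no test.

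**Figure D2:**
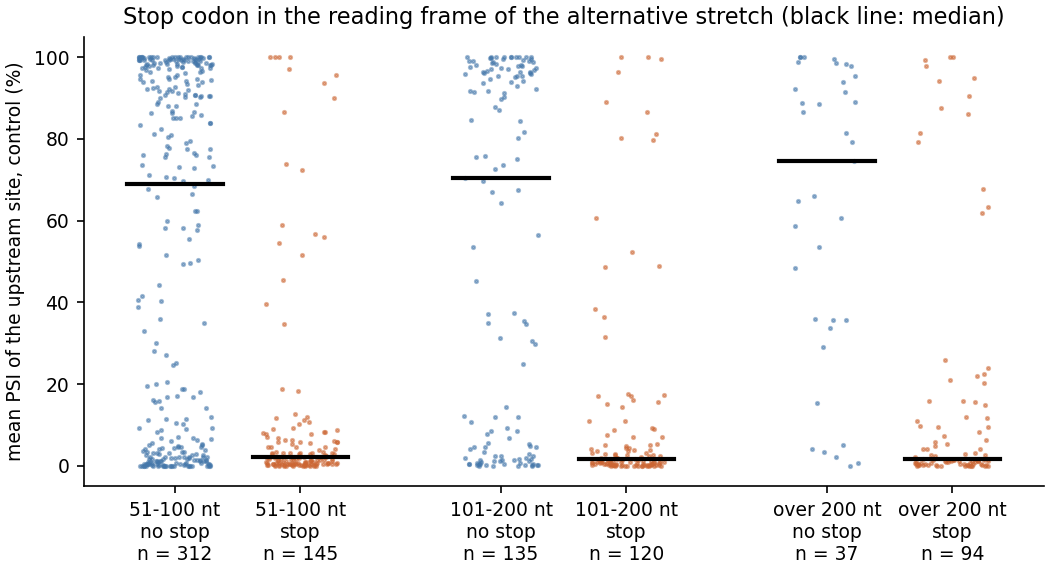
Mean PSI of the upstream site in the 3 control libraries in percent, 1 dot per event, for events without an inner intron, by distance and by whether the added stretch holds a stop codon in frame. Black lines are medians, which lie under 2.1% in each class with a stop codon and at 69 to 74.6% in each class without one.

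The reading frame itself was split in the same way. Of the events with a frame and no stop codon, 337 were a multiple of 3 and had a median control PSI of 83.9%, against 11.1% for the 177 that were not. With a stop codon the medians were 2.93 and 2.66%. A multiple of 3 made up 38.6% of all 1935 events, 40.5% of the 1792 events 4 to 50 nt apart, and 48.5% of the 194 events with a PSI of 20 to 80% in both groups.

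Annotation followed use. The canonical GENCODE transcript joins the upstream site in 1005 events, with a median control PSI of 97.8%, and the downstream site in 581, with a median of 1.63%. For 348 events it uses neither junction, and their median was 89.9%. In 243 events only transcripts marked for NMD join the upstream site, and their median was 2.08%. In 194 events only such transcripts join the downstream site, and the median was 97.2%. By place, the added stretch was coding in 1498 events (median 93.7%), in the 5′ untranslated region (UTR) in 92 (52.1%), in the 3′ UTR in 53 (17.2%), in a transcript without a reading frame in 183 (2.82%) and joined by no annotated transcript in 109 (60.3%).

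The pyrimidine run followed use only in part. Where the upstream site was used in over 80%, pyrimidines made up 74.2% of the 20 bases before the upstream AG and 69.9% before the downstream AG on average, and the upstream share was the higher in 604 of 1072 events. Where it was used in under 20%, the averages were 71.3 and 72.0%, and the downstream share was the higher in 276 of 616 events, the upstream in 256. Single pairs can go against the averages: the MORF4L2 acceptor with 95% pyrimidines was used less than the one 51 nt downstream with 75%.

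The 5 events with the most reads were these. MORF4L2, a chromatin gene of the MRG family, had an event of 51 nt in its 5′ UTR with 1117 to 1429 reads a library. Its PSI was 24.6, 25.5 and 25.8% in the controls and 23.3, 25.8 and 23.8% with SAM68, a difference of -1.02 ± 0.839 points (SE). LRRC75A-AS1, a noncoding RNA, had an event of 53 nt with 1044 to 1334 reads a library. Its PSI was 54.6, 52.9 and 59.5% in the controls and 60.3, 60.3 and 61.2% with SAM68. All 3 SAM68 values lie above the control values, by 4.94 ± 2.01 points, with an adjusted p of 0.657. The 75 nt event in the 3′ UTR of EIF3B, a subunit of the translation initiation factor eIF3, stood at 40.5, 40.4 and 42% in the controls and 38.7, 38.3 and 43.6% with SAM68. The 2 groups overlap there.

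The other 2 of the 5 used 1 site almost alone. COPE, a coatomer subunit, had 0, 0 and 0.0697% in the control and 0, 0.466 and 0% in the SAM68 libraries with 865 to 992 reads a library. FDFT1, squalene synthase, had 97.9, 97.8 and 100% and 100, 97.3 and 100% with 842 to 979 reads a library. Reads of the downstream site of FDFT1 numbered 14, 14 and 0 in the controls and 0, 16 and 0 with SAM68, so that this site was read in 3 of the 6 libraries at this depth.

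Deep events with both sites in use were picked after their values were seen, as the 25 with the most reads among the 194 events at 20 to 80% in both groups. The 2 groups overlap in 23 of the 25 and do not overlap in 2, LRRC75A-AS1 and RPL22L1, the latter described further on. After MORF4L2, LRRC75A-AS1 and EIF3B, the deepest was IRAK1, a kinase of the Toll-like receptor pathway. It joined a 90 nt (30 codons) stretch in 70.7, 73 and 69.5% of its RNA in the controls and in 75.2, 74.1 and 66.9% with SAM68. TMEM259, which encodes membralin, joined 51 nt (17 codons) in 66, 71.8 and 67.3% and 70.3, 70.5 and 62.1%. NOP16, a nucleolar protein of ribosome assembly, had 69.4, 57.6 and 59.9% and 65.1, 62.6 and 59.1% at 91 nt. The values of the groups overlap in these genes.

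SNHG1, a noncoding host gene of small nucleolar RNAs, had 70.8, 71.8 and 74.6% in the controls and 78.8, 75 and 72.4% with SAM68 at 231 nt. MAP4K4, a kinase upstream of JNK, joined 93 nt (31 codons) in 24.2, 26.6 and 30.4% and 31.8, 28.5 and 28.2%. The next, BOLA2-SMG1P6, lies in a region with near-identical copies, so its reads are uncertain, and it had 31.7, 37.7 and 39.7% and 31, 35.9 and 34.4%. The groups overlap in each of the 3.

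From the rest of the 25, 3 genes are given for what they encode. The 159 nt event in the 3′ UTR of CTNNB1, which encodes β-catenin, had 40.4, 41.8 and 36% in the controls and 33.7, 37.1 and 43.4% with SAM68. SF1, the branch point binding protein named above, had an event of 637 nt at 34.6, 36.1 and 34.8% and 33.8, 36.3 and 33.9%, a difference of -0.500 ± 0.927 points. The SF1 event has an inner intron and shares its junction with an exon skipping event. DDX39B, an RNA helicase that loads U2 snRNP with U2AF, had 130 nt in its 5′ UTR at 22.2, 23.6 and 19.7% and 22.3, 19.7 and 27.1%. Values of the 2 groups overlap in these genes too. Over the 194 events the median absolute difference was 6.03 points and the median SD of the control libraries 8.87 points, and 11 (5.67%) had an unadjusted p under 0.05, against 6.99% of all tested A3SS events. The groups did not overlap in 14 of the 194 (7.22%), against 7.11% of all tested A3SS events.

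**Figure D3:**
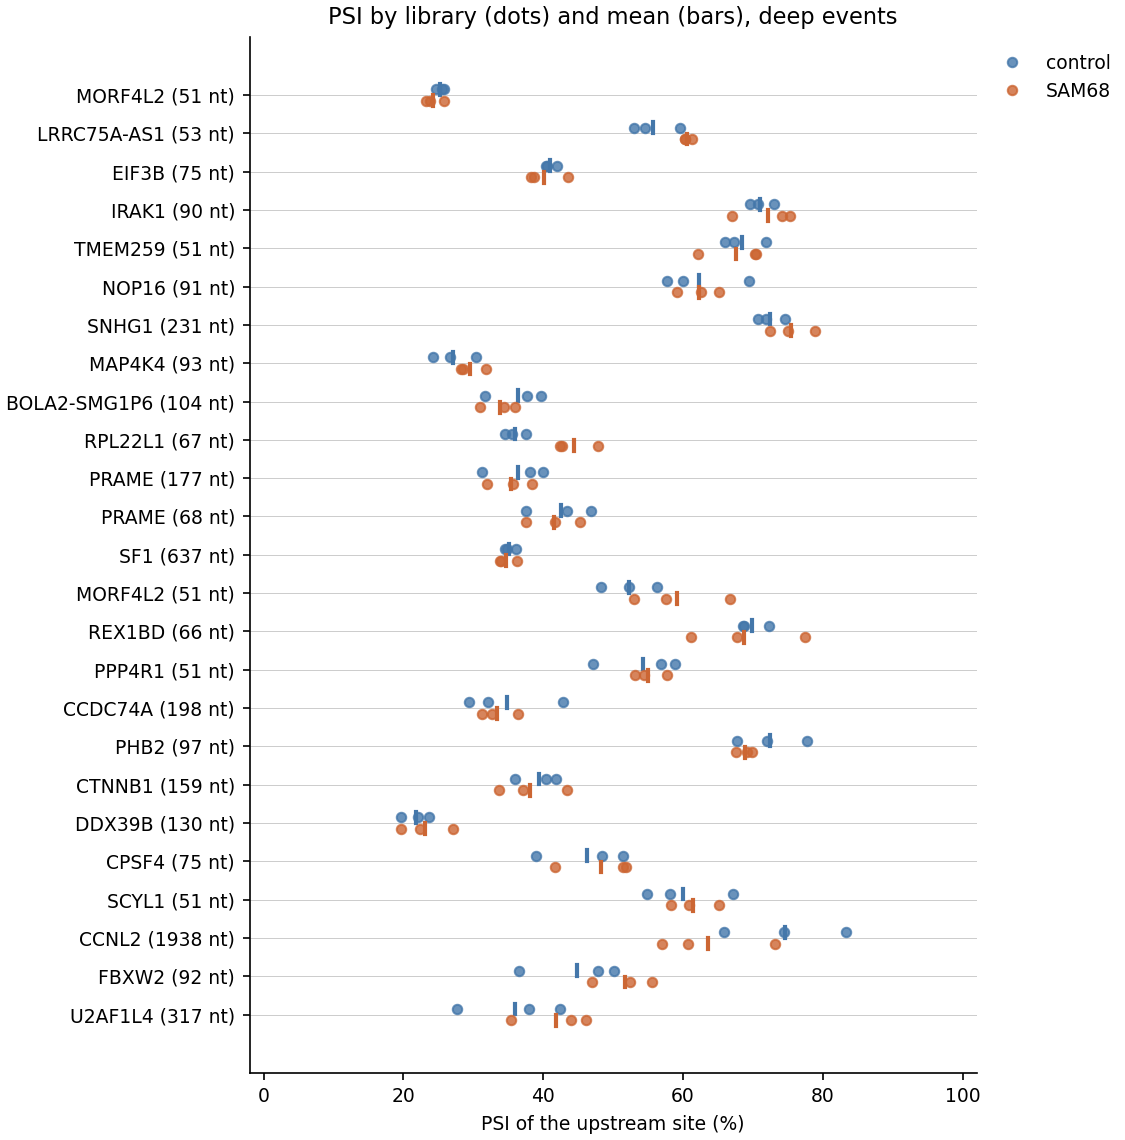
PSI of the upstream site in percent in each control (blue) and SAM68 (orange) library, with bars for the means of 3 libraries, for the 25 events with the most reads among those with both sites in use, deepest at the top (2 events each of MORF4L2 and PRAME). In LRRC75A-AS1 and RPL22L1 all 3 SAM68 values lie above the control values, and in the other 23 events the 2 groups overlap.

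No event of the 1935 passed the test between SAM68 and control. The test was a quasi-binomial model whose dispersion was moderated with limma over the 4391 tested A3SS events, and a call needed an adjusted p under 0.05 and a difference of at least 10 points. It called 0% of the 4391 events of the whole table. At an unadjusted p under 0.05 it found 128 of the 1935 (6.61%), 71 with a higher and 57 with a lower PSI in the SAM68 libraries, against a share of 6.99% over the whole table. The 2 groups did not overlap in 123 events (6.36%), 61 higher and 62 lower, against 7.11% over the whole table. Both shares lie near or under those of all A3SS events. The likelihood ratio test on counts pooled within each group, which ignores the spread between libraries, was the 1 alternative that called events, 34 of the 1935 (1.76%), against 91 of the 4391 (2.07%) over the whole table.

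The differences were small and had no common direction. The median difference was -0.000713 points and the median absolute difference 1.43 points, against 1.66 over all tested A3SS events. An absolute difference of 10 points or more was seen in 173 events (8.94%, against 9.34% over the whole table). It was seen in 32.9% of the 222 events under 20 reads and in none of the 444 with 200 reads and over. The median SE of a difference was 2.07 points over all events, 8.06 points under 20 reads and 0.541 points at 200 reads and over. In 1457 events (75.3%) it was under 5 points.

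By structural class, an unadjusted p under 0.05 was seen in 95 of the 1429 events without an inner intron (6.65%) and in 33 of the 506 with one (6.52%). It was seen in 26 of the 460 with a stop codon (5.65%) and 41 of the 514 without (7.98%). By place it was 7 of 53 in the 3′ UTR (13.2%), 7 of 92 in the 5′ UTR (7.61%), 101 of 1498 in coding sequence (6.74%), 6 of 183 in transcripts without a reading frame (3.28%) and 7 of 109 where no annotated transcript joins the stretch (6.42%). The share over all tested A3SS events was 6.99%, and these shares were not tested against each other.

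**Figure D4:**
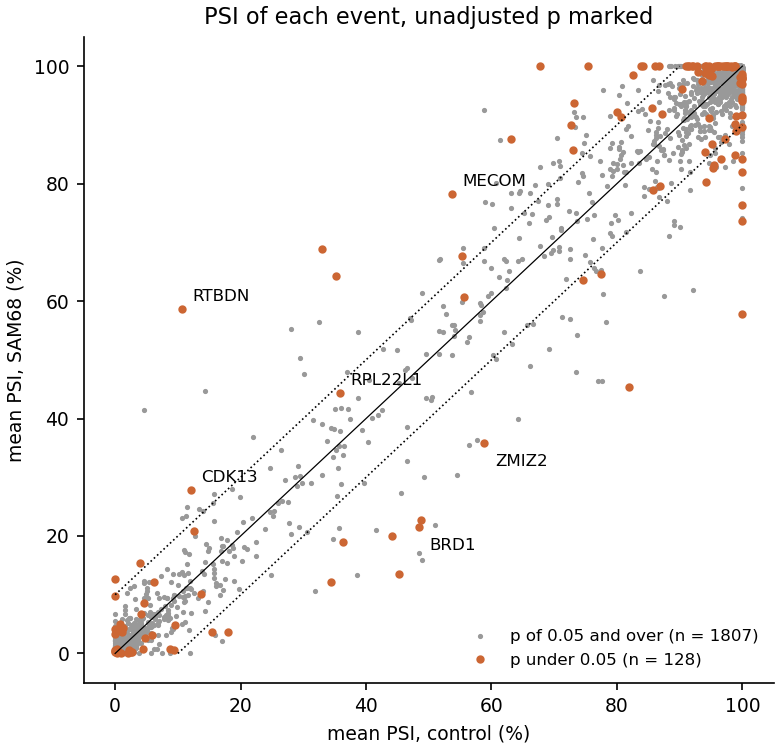
Mean PSI in percent of the 3 control libraries (x axis) and the 3 SAM68 libraries (y axis) for each of the 1935 events, with the 128 at an unadjusted p under 0.05 in orange. The solid line marks equal values and the dotted lines a difference of 10 points. The events lie on both sides of the line, and RTBDN lies farthest from it among the named events.

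Among the events with an unadjusted p under 0.05, a mean of at least 20 reads and groups that do not overlap (50 events), the 10 with the largest higher and the 10 with the largest lower PSI, 1 per gene, are described next. None of them passed the test after adjustment. By this choice the groups were required not to overlap and the unadjusted p to be under 0.05. Leaving out 1 library repeats the p on libraries that served for the choice.

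RTBDN (ENSG00000132026.13) had the largest difference. Its sites lie 75 nt (25 codons) apart in coding sequence, and the canonical transcript uses the downstream one. The PSI was 8.34, 5.04 and 18.4% in the controls and 70.5, 63.4 and 42.1% with SAM68, with 13 to 38 reads a library. The difference was 48.1 ± 9.41 points (SE), with an adjusted p of 0.169, the lowest of the 1935 events. Leaving out each library in turn gave 42.2 to 56.3 points.

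MECOM (ENSG00000085276.17), a zinc finger transcription factor gene known for its rearrangement in myeloid leukemia, had sites 972 nt apart within its coding sequence, so that the shorter form lacks 324 codons. The PSI was 61.4, 57.1 and 42.4% in the controls and 85.2, 76 and 73.3% with SAM68, a difference of 24.5 ± 6.79 points with an adjusted p of 0.657. All 3 SAM68 values lie above the highest control value by more than 10 points.

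CDK13 (ENSG00000065883.15) encodes a kinase that, with cyclin K, acts on the tail of RNA polymerase II. Its 2 acceptors lie 180 nt (60 codons) apart, and the longer form was the minor one, at 13.7, 13 and 9.52% in the controls and 36.8, 24.2 and 22.3% with SAM68. BACE1, the β-secretase of amyloid precursor protein, keeps 75 nt (25 codons) in the longer form. It stood at 80.6, 75.4 and 91.5% and 100, 100 and 95.7%. The differences were 15.7 ± 4.73 points in CDK13 and 16.1 ± 4.98 points in BACE1, each with an adjusted p of 0.657.

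RPL22L1 (ENSG00000163584.17), a paralog of the ribosomal protein RPL22, was the deepest of the 10 with 319 to 429 reads a library. Its acceptors lie 67 nt apart, which is not a multiple of 3, and GENCODE marks the transcripts that use the upstream one for NMD. The PSI was 35.6, 34.6 and 37.6% in the controls and 47.9, 42.7 and 42.5% with SAM68, a difference of 8.45 ± 1.97 points with an adjusted p of 0.604. The spread within each group was under 6 points.

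ARID1A, a subunit of the SWI/SNF chromatin remodelling complex and a tumor suppressor, loses 651 nt (217 codons) of coding sequence in the shorter form. The shorter form was read in each control library, with a PSI of 93.9, 92.3 and 88.1%, and in no SAM68 library, all at 100%, with 95 to 128 reads a library. A count of 0 in the 339 SAM68 reads allows a share of the shorter form of up to 0.885% of reads (3 counts over the group, counting error only). The adjusted p was 0.42. DCTN1, the large subunit of dynactin, had 86.3, 82.8 and 87.8% and 94.8, 92.2 and 91.7%, and its 245 nt event has an inner intron and shares its junction with an exon skipping event.

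The remaining events with higher values were CCDC189, NAT9 and DHRS1. CCDC189 (215 nt, with an inner intron and a junction shared with an exon skipping event) had 74.5, 56 and 59% in the controls and 81.8, 100 and 81% with SAM68. NAT9, an N-acetyltransferase gene, had 60.9, 79.2 and 79.4% and 100, 100 and 81% at 62 nt, and a second event of NAT9 that shares the downstream site, 77 nt away, had 80.9, 88.7 and 90.4% and 100, 100 and 90.3%, where the groups overlap. DHRS1, a short-chain dehydrogenase, had 96.6, 81.1 and 96.1% and 100, 100 and 100%, and 0 of 139 SAM68 reads allow up to 2.16%. Of these 10 events, 5 kept an unadjusted p under 0.05 whichever of the 6 libraries was left out: RTBDN, MECOM, CDK13, ARID1A and RPL22L1.

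In the other direction, BRD1 (ENSG00000100425.18), a scaffold of the HBO1 histone acetyltransferase complex, had sites 393 nt (131 codons) apart in coding sequence. Its PSI was 70, 43.5 and 32% in the controls and 18.9, 24.3 and 21.3% with SAM68, with 17 to 44 reads a library. The difference was -27 ± 11.4 points with an adjusted p of 0.657. The control libraries spread over more than 35 points, and the difference ran from -35.2 to -16.2 points when each library was left out.

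ZMIZ2 (ENSG00000122515.14) had the widest gap between the groups of the 10 with lower PSI. Its acceptors lie 68 nt apart, and the stretch between them holds a stop codon in frame. The PSI was 56.1, 58 and 62.6% in the controls and 30.3, 39.8 and 37.6% with SAM68, a difference of -23 ± 3.45 points with an adjusted p of 0.438. A second ZMIZ2 event joins the same exon to a site 96 nt before the same downstream acceptor, and had 84.4, 86.3 and 86.4% and 74.1, 82.1 and 80.6%. The values are lower with SAM68 in both events, which share the reads joined to and across the downstream site.

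LTBP1, a latent TGF-β binding protein of the matrix, had 29.1, 62.1 and 41.2% and 17.5, 13.7 and 28.5% at 75 nt (25 codons), with only 13 to 25 reads a library. A 159 nt event of LTBP1 with the same downstream site had 33.3, 72 and 55.6% and 47.8, 46.7 and 57.9%, where the groups overlap. TGFBR3, a TGF-β coreceptor, had 96.8, 100 and 100% and 89.5, 95.3 and 82.1% at 246 nt.

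TCF3, which encodes the E12 and E47 transcription factors, had 94.1, 100 and 95.9% in the controls and 82, 76.9 and 93.8% with SAM68 at 869 nt, with an adjusted p of 0.42. SPAG5, a protein of the mitotic spindle, had 91.8, 95.9 and 98.6% and 87.8, 81.2 and 80.6% at 592 nt. Its shorter form is annotated for NMD only. A second SPAG5 event, 589 nt, had 90.6, 93.1 and 98.6% and 93.5, 91.8 and 94.3%, where the groups overlap.

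FAM135A (588 nt, 196 codons) used its upstream site in 12.9, 16.7 and 16.7% of the control RNA and 2.33, 2.04 and 6.45% of the SAM68 RNA. The rest were mostly long forms at high PSI. SWI5, a DNA repair gene, had 96.4, 100 and 100% and 72, 96.3 and 86.5%. NAGK, N-acetylglucosamine kinase, had 95.9, 98.4 and 97.6% and 83.1, 93.7 and 86% at 1049 nt, with an inner intron and a junction shared with an exon skipping event. PLPPR2, a phospholipid phosphatase related protein, had 70.8, 69.9 and 91.8% and 69.9, 60.4 and 63.4%. In PLPPR2, SWI5, TCF3 and LTBP1 the lowest control and the highest SAM68 value lie less than 1 point apart. ZMIZ2, TCF3, SPAG5 and FAM135A were the 4 of these 10 that kept an unadjusted p under 0.05 without any 1 library.

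The division by length weighs on these sizes. As plain shares of reads, 9 of the 20 differences were smaller by over 1.5 times, and that of FAM135A was larger, at -19.8 points. In ARID1A the difference of 8.54 points became 4.48, in DCTN1 7.27 became 4.07, in CCDC189 24.4 became 16.0 and in DHRS1 8.75 became 5.69. In TCF3 -12.4 points became -6.99, in SPAG5 -12.2 became -6.85, in SWI5 -13.9 became -8.16, in TGFBR3 -9.97 became -5.39 and in NAGK -9.72 became -5.31. No direction could turn among the 20, because the division keeps the order of the libraries and the groups were chosen not to overlap.

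In 6 of the 20, leaving out 1 library moved the difference by over 1.5 times, with the libraries numbered by their order in the deposited lists. Without control library 2 the difference was 3.67 points in DHRS1 and -15.2 in LTBP1. Without control library 1 it was -16.2 in BRD1, and without control library 3 it was -5.78 in PLPPR2. Without SAM68 library 1 it was -7.40 in SWI5, and without SAM68 library 3 it was -6.53 in TGFBR3.

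**Figure D5:**
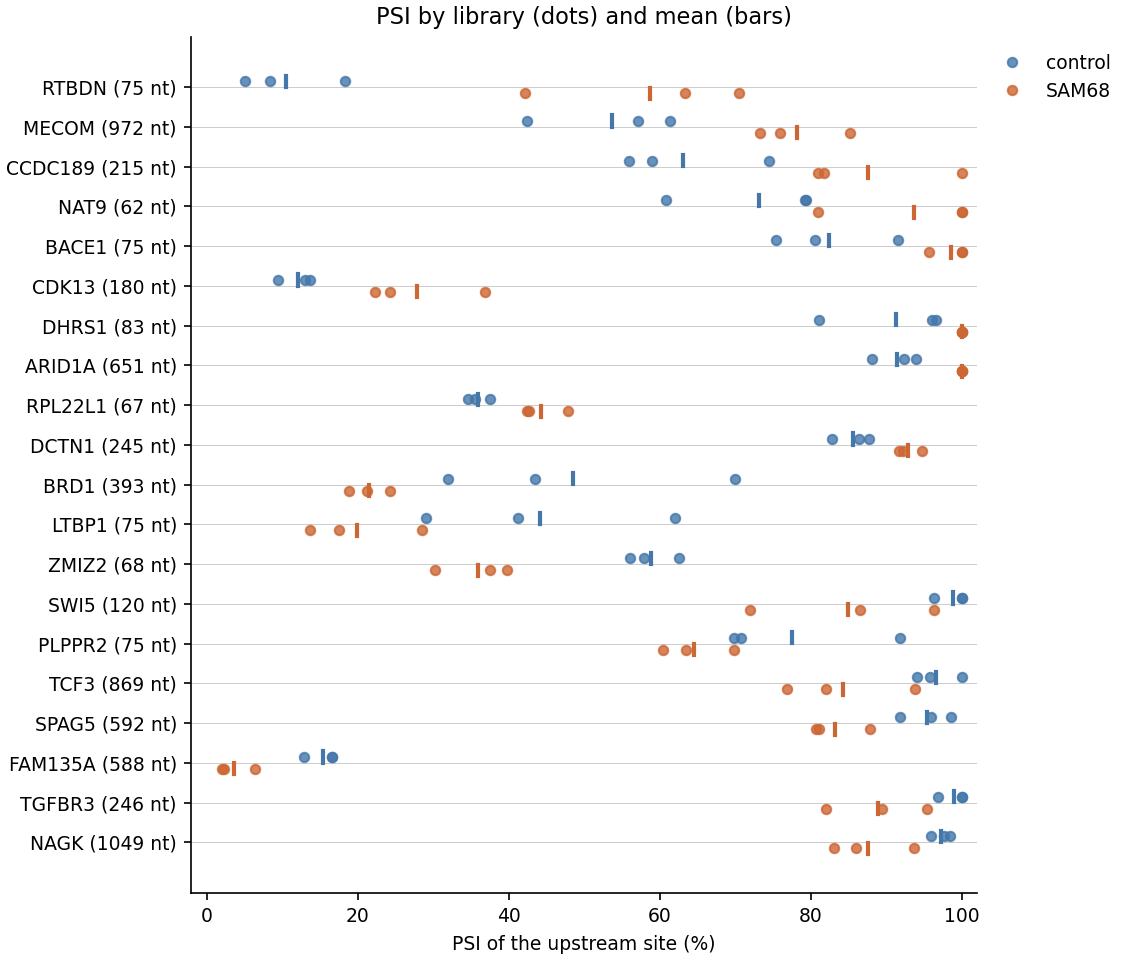
PSI of the upstream site in percent in each control (blue) and SAM68 (orange) library for the 20 events chosen by the size of their difference among those with groups that do not overlap, with bars for the means of 3 libraries. The gap between the groups is wider than the range within either group in ZMIZ2, ARID1A and FAM135A, whereas in PLPPR2, SWI5, TCF3 and LTBP1 the groups lie less than 1 point apart.

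FN1 and ACADVL are genes for which the study lists A3SS events. The study chose both to check its RNA sequencing and reports that SAM68 regulates their splicing. For ACADVL it reports, by RT-PCR, more inclusion of an exon and the introns on both sides of it with SAM68. That measure was not set against the events below. FN1 (ENSG00000115414.18), fibronectin of the matrix, had 2 events over 50 nt in its variable region (IIICS). In the 75 nt (25 codons) event, the longer form keeps the CS1 segment that α4β1 integrin binds. The PSI was 68, 58.4 and 100% in the controls and 100, 100 and 100% with SAM68, with 32 to 65 reads a library. One control library had no read of the shorter form, like the SAM68 libraries, so the groups overlap. In the SAM68 libraries 0 of 122 reads were of the shorter form, which allows up to 2.46%. The difference was 24.5 ± 12.6 points with an adjusted p of 0.294, and it ran from 16 to 36.8 points when each library was left out, the lowest without control library 2 and the highest without the control library at 100%. In the 360 nt event, whose shorter form lacks the whole region, the values were 96.3, 93.1 and 100% and 95.8, 90.5 and 100% and the groups overlap.

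ACADVL (ENSG00000072778.19) encodes very long-chain acyl-CoA dehydrogenase of mitochondrial fatty acid oxidation. Its 140 nt event has an inner intron and shares its junction with an exon skipping event. The PSI was 94.4, 93.6 and 96.1% in the controls and 88.9, 91 and 93.5% with SAM68, with 624 to 816 reads a library. All 3 SAM68 values lie under the control values, with a difference of -3.59 ± 1.52 points and an adjusted p of 0.657. Without the division by length the difference was -1.94 points. The 94 nt event of ACADVL had 9 to 22 reads per library, and its values overlap, at 100, 87.5 and 100% and 100, 87.5 and 60.9%. Its difference of -13 ± 12.3 points became -2.08 points without SAM68 library 3 and -21.7 without SAM68 library 1.

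Gene lists chosen for this cell and factor held few of the events, and no event of a list passed the test. Of 12 genes reported as SAM68 targets in other cells, 2 were measured, SGCE and RPS6KB1, with 3 events. The 249 nt event of RPS6KB1, the S6 kinase, had 95.3, 100 and 98.2% and 100, 92.4 and 95.2%. It has an inner intron and shares its junction with an exon skipping event. Differences over this list ran from -1.98 to 0.105 points, with a median of -0.57 against -0.0486 over all 4391 tested A3SS events.

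Of the listed splicing factors, 23 were measured with 33 events, of which 3 had an unadjusted p under 0.05, all lower in the SAM68 libraries. The share over all tested A3SS events was 6.99%, 153 events with a higher and 154 with a lower PSI. The median difference was -0.893 points, against -0.0486 over all of them. These 3 were PRPF3, RBM39 and CCNL2. PRPF3, a protein of the U4/U6 snRNP, had 0.611, 2.71 and 4.69% in the controls and 0.494, 0 and 0% with SAM68 at 58 nt, where the groups do not overlap, with 0 to 8 reads of the longer form per library and an adjusted p of 0.657. RBM39, a U2AF-related factor, had 100, 100 and 100% in the controls and 81.8, 100 and 70.7% with SAM68 at 824 nt. CCNL2, a cyclin of splicing kinases, had 65.9, 74.4 and 83.3% and 73.1, 57 and 60.6% at 1938 nt. The CCNL2 event has an inner intron and shares its junction with an exon skipping event. The groups overlap in RBM39 and CCNL2. SRSF5, an SR protein that binds exonic enhancers, used an upstream acceptor 956 nt away in 5.50, 6.02 and 5.86% of its RNA in the controls and 4.66, 5.07 and 4.53% with SAM68. The stretch holds a stop codon in frame and also an annotated intron, and the transcripts that join its upstream site are marked protein coding or NMD. A stop codon lay in the stretch in 12 of the 33 events.

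Among 59 genes of glycolysis, pyruvate and the citric acid cycle, 8 were measured with 10 events, and the median difference was -0.283 points, against -0.0486 over all tested A3SS events. Citrate synthase (CS) stood at 99.3, 100 and 99.8% and 100, 98.3 and 100% at 52 nt, and PFKL, a phosphofructokinase, at 0.719, 0.665 and 0.727% and 1.02, 0 and 0.211%. DLD, the E3 subunit of pyruvate dehydrogenase, was the 1 of the 10 with an unadjusted p under 0.05 (6.99% over all tested A3SS events). It stood at 0.678, 2.05 and 0% and 0, 0 and 0%, where the groups overlap. The longer form had only 2, 7 and 0 reads in the controls, and 0 of 544 SAM68 reads allow up to 0.551%. No PKM event was among the 1935.

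Of 38 apoptosis genes, 4 were measured with 1 event each. BIRC5, survivin, had an event of 698 nt. The stretch holds a stop codon and an inner intron, and the junction is shared with an exon skipping event. The event stood at 11.9, 16.2 and 13.1% in the controls and 10.7, 11.4 and 8.36% with SAM68. It was the 1 event of the 4 with an unadjusted p under 0.05 (6.99% over all tested events), with all SAM68 values lower, a difference of -3.61 ± 1.57 points and an adjusted p of 0.657. The median difference of the list was -0.391 points, against -0.0486 over all tested events.

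The next 3 lists are read against the same share of 6.99% with an unadjusted p under 0.05 and the same median of -0.0486 points over all tested A3SS events. Of 69 genes of adhesion, matrix and cytoskeleton, 13 were measured with 21 events, and FN1 and LTBP1, given above, were the 2 of the 21 with an unadjusted p under 0.05. PXN, paxillin of focal adhesions, had 7.99, 11 and 8.56% and 9.08, 7.71 and 11.4% at 144 nt. The median difference was 0.0175 points. Of 76 DNA repair genes, 11 were measured with 17 events and a median difference of -0.157 points. RAD52, a recombination mediator, was 1 of 2 of the 17 with an unadjusted p under 0.05, at 7.24, 31.5 and 15.2% and 7.39, 0 and 3.74% for 52 nt, where the groups overlap. Of 36 genes often altered in lung adenocarcinoma, 5 were measured with 7 events and a median difference of 0.0687 points, and ARID1A was the 1 of the 7 with an unadjusted p under 0.05.

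SAM68 is known to bind A and U rich RNA, with UAAA and UUAA as the core, so the stretches were searched for TAAA or TTAA on the strand of the gene. In the first 50 nt of the added stretch 328 of the 1935 events (17.0%) held either, and in the 50 nt before the upstream junction 490 (25.3%). Of the 71 events with a higher PSI at an unadjusted p under 0.05, 11 (15.5%) held it in the stretch and 26 (36.6%) before it. Of the 57 with a lower PSI, 10 (17.5%) and 13 (22.8%) did. These are matches of letters, with no test.

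The limits of the rule cut through like events. Just inside the distance limit, at 51 nt, the events with the most reads were that of MORF4L2 given above and that of VPS28, with a mean PSI of 90.7% in the control and 91.2% in the SAM68 libraries. Just outside, at 50 nt, were MYL6 with 89.3 and 92.6% and AP3D1 with 0.248 and 0.318%. Just inside the read limit, with a mean of 10 reads, were NDRG4 with 11.9 and 0% and PGGHG with 92.2 and 92.1%. Just outside, with 9.83 reads, were SLC4A11 with 96.9 and 100% and PIF1 with 90 and 95.2%.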

How the data were processed

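Per the labels and methods, RNA of 3 control and 3 SAM68 libraries was sequenced from both ends on a NovaSeq instrument. The submitters' processing notes name CASAVA 1.4, fastp 0.20.0, HISAT2 2.1.0 and GRCh38, and the methods name rMATS, whose version and annotation are not given in the sources used here. The deposited A3SS, exon skipping and retained intron tables hold, for both forms, raw counts of junction reads made by the authors, as lists of 3 values per group, with effective lengths of 180 to 260 for the longer and 130 for the shorter form of these events. The tables of alternative 5′ splice sites and mutually exclusive exons, and the authors' own p-values, FDR and differences, were not used. The lists name no replicate and no group. The first list was taken as control and the second as SAM68 from a titled panel of the study's figures, and the KHDRBS1 reads were checked against this. The study calls the libraries of a group biological replicates.

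The A3SS table holds 19 blank lines and 275 events whose lists a spreadsheet had regrouped, which were left out. Counts had to give the printed levels within 0.00051. Coordinates were written 1-based in hg38 and annotated with GENCODE 44, which held the genes of 1932 of the 1935 events.

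Group means of PSI took the libraries with reads (9 events lacked reads in a library). The 4391 A3SS events with 10 or more reads on average entered a quasi-binomial model of longer and shorter counts with the group as its term. Each Pearson dispersion was moderated by limma 3.58.1 (squeezeVar, R 4.3.3) (19.2 prior degrees of freedom, shared dispersion 1.815), events in which no spread could be seen took the shared value, and none was taken below 1. The F test was adjusted by Benjamini-Hochberg over the 4391 events. The test was checked on simulated counts, and the alternatives are given in the closing section. Events were named by these rules: 1 per gene, the 10 with the largest higher and the 10 with the largest lower PSI among events with an unadjusted p under 0.05, a mean of at least 20 reads and groups that do not overlap, the 5 events with the most reads, FN1 and ACADVL, up to 4 events of each of 7 gene lists, and the events next to the limits. All further names were picked with their values in view. The events, rules and lists were chosen with earlier results of these data known.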

Additional observations from a re-analysis of the deposited data

How the results depend on the processing

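The count of 0 called events held under 14 of the 15 alternatives, and the likelihood ratio test on pooled counts, which ignores the spread between libraries, called 34 (1.76%, against 2.07% of all tested A3SS events). The count could not change without the length normalization, with no limit on the difference or with a limit of 5 points. These settings keep the adjusted p of the main test, of which the lowest was 0.169. The 128 events with an unadjusted p under 0.05 became 54 when each event kept its own dispersion, 460 with the likelihood ratio test, and 117 to 134 when each of the 6 libraries was left out in turn, where the group of 2 is assumed to vary like the rest. One dispersion shared by all events, chosen after seeing the data, gave 112, limma on the logit of PSI 91, a minimum of 20 reads 112 of 1713 events, and no minimum 164 of 2357. Of 376 values of the 29 named events under the alternatives, 14 passed the threshold, each with the likelihood ratio test. The sign turned in 4, all by leaving out 1 library: the EIF3B event ran from -2.51 to 0.126 points and the COPE event from -0.0232 to 0.210 points, each turning without SAM68 library 2, and the 360 nt event of FN1 ran from -3.31 to 1.45 points, turning without SAM68 library 2 and without control library 3 (0.737). Without the length normalization, 12 of the 29 differences moved by over 1.5 times (1.52 to 1.91), 11 to smaller and 1 to larger sizes. The KHDRBS1 ratio ran from 3.87 to 4.01 over its alternatives. The quasi-likelihood test of the form by group interaction was planned and not run. No paired analysis was possible because the columns carry no replicate numbers.

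With 3 libraries per group and a median of 80.8 reads per event and library, the median SE of a difference was 2.07 points, and 1.78 points at 50 to 200 reads. The 150 events with regrouped lists are missing. Reads of the longer form cannot be told from intron retention or from use of another acceptor before the downstream site.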
